A study of Rattus norvegicus with 18 samples.

Results

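The miR-26 family of the rat heart is made up here of 4 mature miRNAs, the 5p and 3p arms of miR-26a and miR-26b, out of 599 miRNAs listed for each library. They were taken by name, as every listed entry that reads miR-26a or miR-26b once the species prefix and the arm are removed. The measurement was small RNA sequencing of heart tissue in 18 libraries, with 6 in each of 3 groups. The QDG group is spontaneously hypertensive rats (SHR) treated with QDG, the SHR group carries the label hypertension, and the WKY group is Wistar Kyoto rats labelled normal. The design text also names NS as a treatment of rats without QDG, and neither abbreviation is spelled out in the labels. Age, sex, dose and the part of the heart are not given in the labels. Each group holds a single strain and condition, so strain, blood pressure and handling cannot be told apart between SHR and WKY, while QDG and SHR animals share a strain. The titles number the libraries but do not say that each came from its own rat, and the p-values measure the spread between libraries, which may in part be technical.

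A miRNA is cut from a hairpin precursor, and 1 of the hairpin's arms, the guide, is usually kept in the silencing complex while the other, the passenger, is degraded. The guide finds messenger RNAs mainly through its seed, the bases 2 to 8 from its 5′ end, and lowers their translation and stability. Members of the miR-26 family are processed from transcripts of the CTDSP genes, which encode small phosphatases that act on the tail of RNA polymerase II and, as part of the REST complex, on neuronal genes. miR-26 is broadly expressed, rises as cells differentiate, and has been reported to repress Ezh2, a histone methyltransferase, Smad1 in endothelial cells, Gata4 in hypertrophic rodent heart cells and the potassium channel gene KCNJ2 in atrial fibrillation.

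All 4 members matched an entry in RefSeq's table for the GRCr8 build, as did 543 of the 599 listed miRNAs. The mature sequences are shown because the guides carry the levels and the differences described here, and because they show how little separates miR-26a from miR-26b. The capitals mark the seed.
miR-26a-5p: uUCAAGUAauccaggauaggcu
miR-26b-5p: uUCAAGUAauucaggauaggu
miR-26a-3p: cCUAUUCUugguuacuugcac
miR-26b-3p: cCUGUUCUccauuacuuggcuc

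The 5p arms share their seed with each other and with no other mature miRNA among the 693 names in that table. Over the first 21 bases they are identical at 19, and the substitutions from miR-26a-5p to miR-26b-5p, counted from 1 at the 5′ end, are C11U and C21U. The next most similar listed miRNA differs from miR-26a-5p at 11 bases, and from miR-26b-5p at 9. A read cut short of base 21 still carries base 11. An error at base 11, or matching that allows mismatches, could give a read to either guide. The labels do not say how such reads were counted. The 3p arms differ at 7 of 21 bases, including A4G inside the seed, so their seeds are not shared. No other mature miRNA in the table has either 3p seed.

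The precursors are printed with both mature arms in capitals, to show where each arm lies in its hairpin.
Mir26a hairpin: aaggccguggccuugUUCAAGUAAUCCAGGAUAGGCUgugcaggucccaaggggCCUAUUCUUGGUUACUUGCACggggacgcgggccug
Mir26b hairpin: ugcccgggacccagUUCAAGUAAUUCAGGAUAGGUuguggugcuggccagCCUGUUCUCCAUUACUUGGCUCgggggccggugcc
In GRCr8 the Mir26a hairpin of 90 bases lies on the plus strand at chr8:127633048-127633137, within the span of Ctdspl at chr8:127520478-127644999. The Mir26b hairpin of 85 bases lies on the plus strand at chr9:83425709-83425793, within Ctdsp1 at chr9:83422755-83428411. The table gives gene spans without exon bounds. In human and mouse both hairpins are intronic, and a further miR-26a hairpin in the related gene Ctdsp2 gives the same guide. Mature reads cannot tell such loci apart.

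Levels are the authors' normalized read counts, which are reads per 1000000 of a divisor particular to each library and are written RPM below. Library depth, as reads over the listed miRNAs, was 6805472 to 8574447 in QDG, 6420666 to 10169581 in SHR and 6465025 to 9463554 in WKY. All 6 heart muscle miRNAs chosen as markers (miR-1-3p, miR-1b, miR-133a-3p, miR-208a-3p, miR-208b-3p and miR-499-5p) were present. Together they held 487333 to 575474 RPM in QDG, 504470 to 587499 RPM in SHR and 499501 to 620182 RPM in WKY. The liver marker miR-122-5p stayed between 0.610 and 18.02 RPM. In bulk tissue, fewer cells of a type and less RNA per cell cannot be told apart.

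The family was led by its 5p arms, as guides, and by miR-26a in particular. miR-26a-5p was the 4th most abundant of the 599 miRNAs over all libraries, at 68220 ± 5694 RPM (SD, n = 18), and miR-26b-5p was 30th at 6902 ± 845 RPM. The passenger miR-26b-3p came 262nd at 7.97 ± 1.63 RPM. miR-26a-3p came 457th, with 0 to 5 reads a library. The family summed to 5.25 ± 0.310% of the reads over listed miRNAs in QDG, 5.04 ± 0.303% in SHR and 5.59 ± 0.177% in WKY (SD, n = 6 each), nearly all of it miR-26a-5p.

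**Figure D1:**
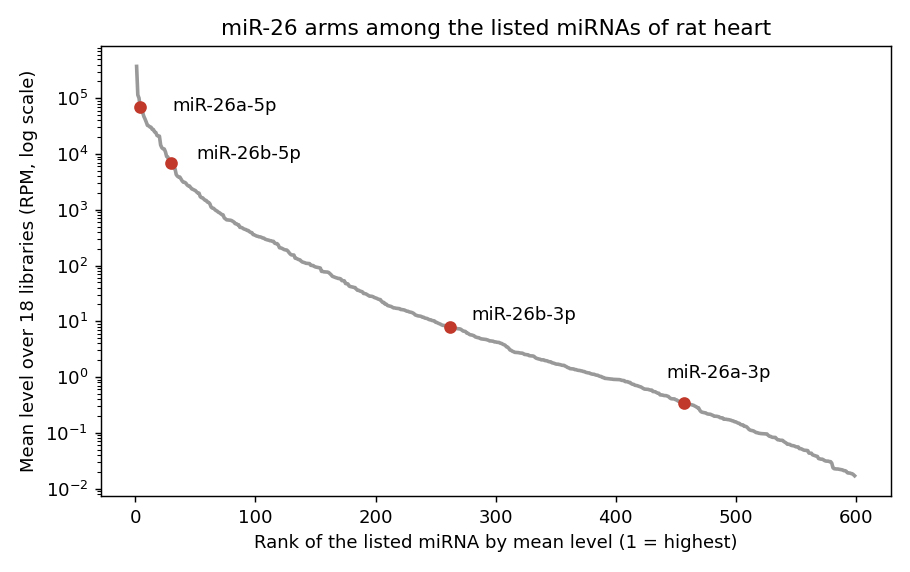
Mean level of each listed miRNA over the 18 libraries (RPM, log scale) against its rank, with the 4 miR-26 arms marked. miR-26a-5p stands 4th and miR-26b-5p 30th, while the passengers stand 262nd and 457th.

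miR-26a-5p ran from 58609 to 73850 RPM in QDG with a median of 68497, from 56851 to 69155 RPM in SHR with a median of 65285, and from 69290 to 77151 RPM in WKY with a median of 71533. The highest SHR library lay just under the lowest WKY library, whereas QDG libraries spread over the range of both. Its place in the order was 4th in QDG and SHR and 3rd in WKY. In QDG and SHR the miRNAs next above it, miR-1-3p and miR-126a-3p, did not overlap it, while miR-143-3p next below did. In WKY the muscle miRNA miR-1-3p stood next below it, at 70589 ± 8617 RPM. The WKY libraries of miR-1-3p ran from 62279 to 85643 RPM, beyond the range of miR-26a-5p on both sides. In SHR miR-1-3p had 117240 ± 10227 RPM (SD, n = 6 each).

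miR-26b-5p ran from 5334 to 7288 RPM in QDG with a median of 6815, from 5498 to 7107 RPM in SHR with a median of 6369, and from 7028 to 8537 RPM in WKY with a median of 7753. A single library of QDG and a single library of SHR reached above the lowest WKY library, and the other 5 of each lay below all of WKY. Its neighbours in the order, let-7c-5p above and miR-125a-5p below in QDG and SHR, overlapped it, as did miR-100-5p above and let-7c-5p below in WKY. These are levels of miRNAs of nearly the same length, and differences in how well each sequence is ligated were not measured.

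miR-26b-3p had 4.74 to 9.96 RPM in QDG with a median of 7.91, 6.08 to 8.91 RPM in SHR with a median of 7.74, and 6.56 to 11.9 RPM in WKY with a median of 8.28. The groups overlap widely. These values rest on 26 to 53 reads a library, so counting error alone is a large part of their spread. miR-26a-3p had 9 reads in all of QDG, 14 in SHR and 10 in WKY, with at most 5 in a library and 1 library at 0 in each group. A count of 0 allows up to 3 reads, which is 0.501 to 0.555 RPM in those libraries. The 3p arm was 0.000406% of miR-26a reads in QDG (95% exact binomial interval 0.000186 to 0.000770%), 0.000637% in SHR (0.000348 to 0.00107%) and 0.000433% in WKY (0.000207 to 0.000795%). The intervals overlap, and they cover counting error only. Over all libraries, 6727452 reads of miR-26a-5p stood against 33 of its passenger, and 677772 of miR-26b-5p against 776 of its own.

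**Figure D2:**
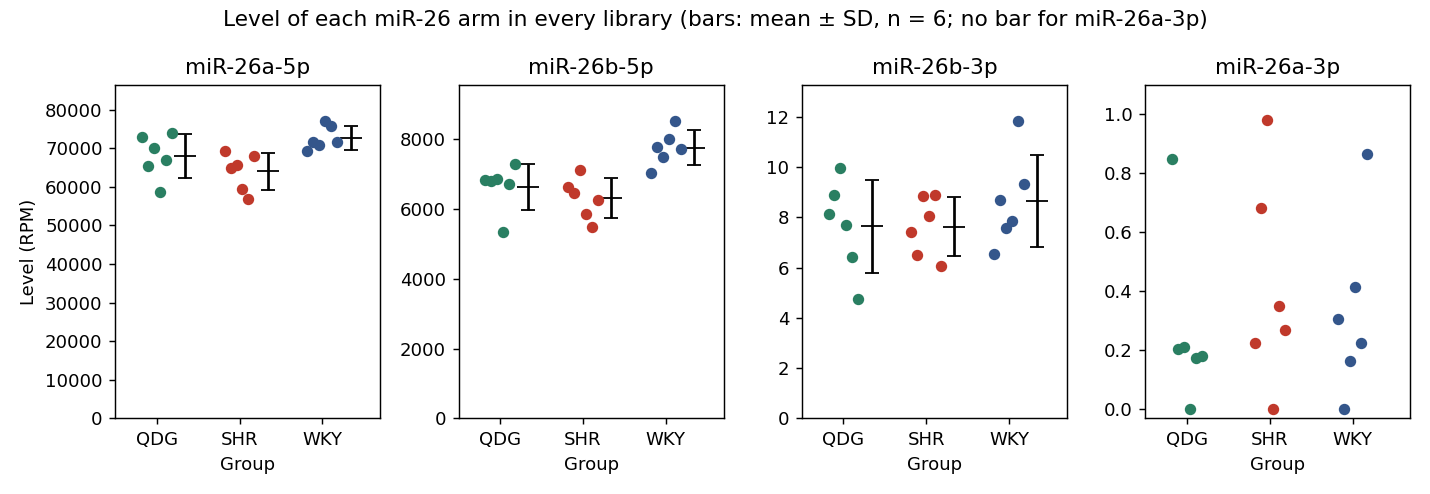
Level (RPM) of each miR-26 arm in the 6 libraries of QDG, SHR and WKY, as points, with the mean ± SD as bars for all but miR-26a-3p, whose values rest on 0 to 5 reads. miR-26a-5p of SHR (56851 to 69155) lies below that of WKY (69290 to 77151), and miR-26b-5p of SHR and QDG lies mostly below WKY.

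Between libraries of a group, the coefficient of variation of miR-26a-5p was 8.31% in QDG, 7.55% in SHR and 4.24% in WKY, and that of miR-26b-5p was 10.1%, 9.10% and 6.48%. The median over the 66 miRNAs with a mean of at least 1000 RPM was 10.9% in QDG, 9.02% in SHR and 12.1% in WKY. Of these 66, 22 varied less than miR-26a-5p in QDG, 24 in SHR and 3 in WKY, and 30, 35 and 7 varied less than miR-26b-5p in the same order.

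SHR against WKY sets the hypertensive strain beside the normal one. miR-26b-5p fell in SHR, at 6306 ± 574 RPM in SHR and 7762 ± 503 RPM in WKY (SD, n = 6 each). The log2 fold change was -0.30 ± 0.08 (SE), a difference of -18.9% with a 95% interval of -28.0 to -8.57%. It passed limma's test (adjusted p = 0.00981, Benjamini-Hochberg over the 410 miRNAs tested, values taken as RPM + 1), and 6 of 6 SHR libraries lay below the WKY mean. Upper quartile scaling in place of the authors' own ended that call (log2 -0.20, limma adjusted p = 0.0799).

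miR-26a-5p had 64000 ± 4834 RPM in SHR and 72689 ± 3085 RPM in WKY (SD, n = 6 each), a log2 fold change of -0.19 ± 0.07 and a difference of -12.1% (95% interval -20.4 to -2.97%). It just missed limma's threshold of 0.05 (adjusted p = 0.0524), although 6 of 6 SHR libraries lay under the lowest WKY library. It passed with any of 4 single libraries left out, WKY replicate 1 (adjusted p = 0.0351), SHR replicate 1 (0.0455), SHR replicate 6 (0.0470) or QDG replicate 4 (0.0309), the last of which enters only the shared estimate of spread. As a share of all reads over listed miRNAs the groups did overlap, from 4.14 to 4.94% in SHR and from 4.80 to 5.29% in WKY, and the log2 fold change on that scale was -0.14 (adjusted p = 0.0971). miR-26b-3p had -0.15 ± 0.16 (adjusted p = 0.536), with an interval from -28.1 to 12.8% that holds the size of the guide's change.

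Of the 3 members that passed the filter on low values, 1 was lower and 0 were higher, beside 15.1% of all 410 miRNAs lower, 8.05% higher and 23.2% called either way. The number of miRNAs whose 6 SHR libraries all lay below WKY was 28, or 6.83%, with miR-26a-5p among them. The members' median was -0.19, against -0.07 for all 410, and 87 miRNAs had a more negative fold change than miR-26b-5p. The 95 calls were 33 higher and 62 lower with the authors' values, and 49 higher and 38 lower with upper quartile scaling. miR-26b-5p and miR-26a-5p stayed negative under each scaling tried, and nearest to 0 with upper quartile scaling (log2 -0.20 and -0.09).

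**Figure D3:**
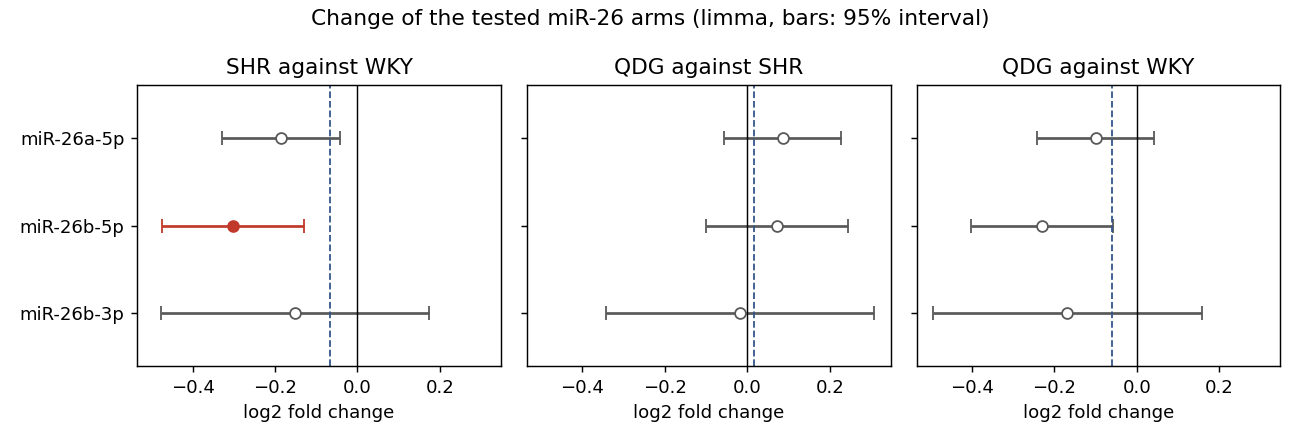
log2 fold change of the tested miR-26 arms with 95% intervals, filled where limma's adjusted p was under 0.05, in the 3 comparisons. The dashed line is the median over the 410 miRNAs tested. Only miR-26b-5p in SHR against WKY, at -0.30, is filled.

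QDG against SHR asks what QDG changed within the SHR strain. No change of a miR-26 arm was detected. miR-26a-5p averaged 67973 ± 5650 RPM in QDG and 64000 ± 4834 RPM in SHR (SD, n = 6 each), a log2 fold change of 0.09 ± 0.07 (limma adjusted p = 0.983) with a 95% interval from -3.84 to 17.2%. miR-26b-5p averaged 6638 ± 669 RPM in QDG and 6306 ± 574 RPM in SHR, with 0.07 ± 0.08 (limma adjusted p = 0.983) and an interval from -6.73 to 18.5%. For both guides 5 of 6 QDG libraries lay above the SHR mean. miR-26b-3p had -0.02 ± 0.16 (limma adjusted p = 0.983). Here limma called 0% of the 410 miRNAs in either direction, as did edgeR and DESeq2, and 15 (3.66%) had an unadjusted p under 0.05 in limma, 18 in edgeR and 20 in DESeq2.

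QDG against WKY sets the treated hypertensive rats beside the normal strain. It shares its WKY libraries with SHR against WKY, so the 2 comparisons are not independent. miR-26b-5p had 6638 ± 669 RPM in QDG and 7762 ± 503 RPM in WKY (SD, n = 6 each), a log2 fold change of -0.23 ± 0.08 and a difference of -14.7% (95% interval -24.3 to -3.87%). It missed limma's threshold (adjusted p = 0.0580), with 6 of 6 QDG libraries below the WKY mean. Leaving out WKY replicate 1 (adjusted p = 0.0298), QDG replicate 6 (0.0438) or SHR replicate 5 (0.0459) brought it past. miR-26a-5p had 67973 ± 5650 RPM in QDG and 72689 ± 3085 RPM in WKY, with -0.10 ± 0.07 (limma adjusted p = 0.351), and its sign turned with upper quartile scaling (0.01). miR-26b-3p had -0.17 ± 0.16 (limma adjusted p = 0.515). None of the 3 tested members was called, beside 17.8% of all 410 miRNAs (7.32% higher and 10.5% lower), and edgeR, DESeq2 and limma-voom likewise called none of them. No member's QDG libraries all lay below WKY, as those of 4.15% of the miRNAs did. The 73 calls were 30 higher and 43 lower, and 55 higher and 28 lower with upper quartile scaling.

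QDG replicate 4 was the lowest QDG library for both guides, at 58609 RPM of miR-26a-5p and 5334 RPM of miR-26b-5p, and the values of its listed miRNAs also summed to the least in QDG. Without it the log2 fold changes of QDG against SHR were 0.13 for each guide, and those of QDG against WKY were -0.06 for miR-26a-5p and -0.17 for miR-26b-5p, with limma adjusted p between 0.150 and 0.999. Leaving out SHR replicate 5 moved QDG against SHR the other way, to 0.05 for miR-26a-5p and 0.03 for miR-26b-5p (limma adjusted p = 0.989 for both).

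The ratio of the guides within a library does not depend on how the library was scaled. miR-26b-5p was 9.10 to 10.4% of miR-26a-5p in QDG with a median of 9.82%, 9.23 to 10.8% in SHR with a median of 9.75%, and 10.1 to 11.3% in WKY with a median of 10.7%. QDG and SHR libraries lay mostly below WKY, with some overlap. In SHR, replicate 3 reached 10.8%, above the WKY median. The log2 ratio of miR-26b-5p to miR-26a-5p averaged -3.34 ± 0.08 in SHR and -3.23 ± 0.05 in WKY, a difference of -0.12 (exact permutation test, two-sided, p = 0.0173, adjusted 0.0519 over 6 tests). In QDG it averaged -3.36 ± 0.07, a difference of -0.13 from WKY (exact permutation p = 0.00649, adjusted 0.0390) and of -0.01 from SHR (exact permutation p = 0.760, adjusted 0.866). The smallest p this design allows is 0.00216. Of 9 ratio tests planned, the 3 on the passenger of miR-26a were not run, because 3 libraries had no read of it. Counting them as tests, the adjusted p for QDG against WKY is 0.0584, so that call rests on adjusting over 6. The call for QDG against WKY was lost in 10 of the 12 fits that left out a library (adjusted p 0.0519 to 0.0779) and kept without QDG replicate 2 or WKY replicate 1 (adjusted p = 0.0260 and 0.0390), while the difference stayed between -0.15 and -0.11. SHR against WKY was called without SHR replicate 3 (adjusted p = 0.0195) or without WKY replicate 1 (0.0455).

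The ratio of the passenger to the guide of miR-26b showed no detectable difference. miR-26b-3p was 0.0651 to 0.145% of its guide in QDG, 0.0970 to 0.162% in SHR and 0.0933 to 0.139% in WKY. The log2 ratio differed by 0.13 between SHR and WKY, by -0.10 between QDG and SHR and by 0.04 between QDG and WKY (exact permutation p = 0.377, 0.686 and 0.866, adjusted 0.753, 0.866 and 0.866). Leaving out single libraries moved these differences over 0.05 to 0.20, -0.17 to 0.06 and -0.04 to 0.19. Under the other settings tried for the ratio, the first ran from -9.6e-05 to 0.15. None of these signs is settled. For miR-26a such a ratio was not formed, because 3 libraries had no passenger read.

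**Figure D4:**
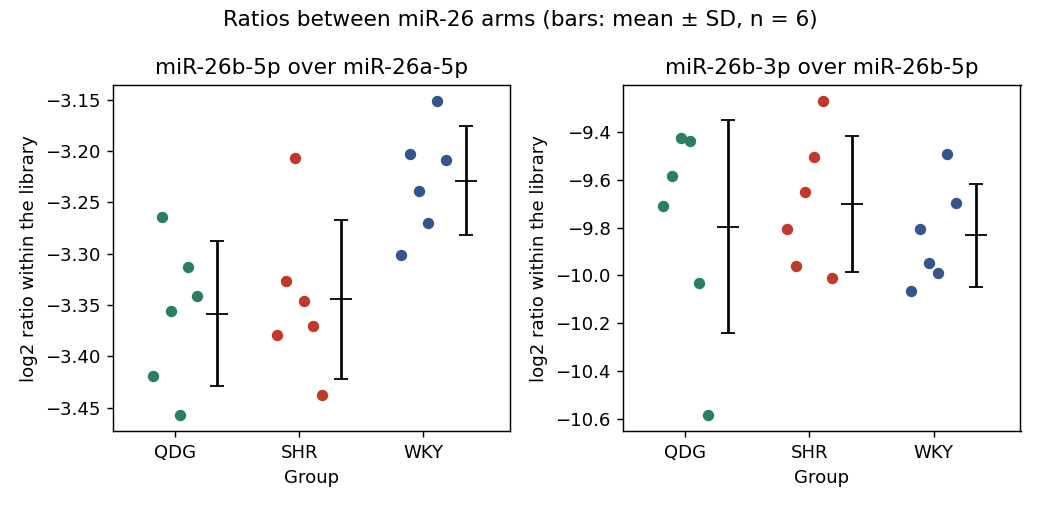
log2 ratio within each library of miR-26b-5p to miR-26a-5p (left) and of miR-26b-3p to miR-26b-5p (right), as points for QDG, SHR and WKY, with the mean ± SD as bars (n = 6). On the left the means are -3.36 in QDG, -3.34 in SHR and -3.23 in WKY, and on the right the groups overlap widely.

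The guides moved together from library to library. Of 248 other miRNAs with a mean of at least 10 RPM, miR-26b-5p had the pattern most like miR-26a-5p, with Pearson r = 0.90 for log2 values over the 18 libraries and 0.86 once each group's mean was subtracted. These correlations are a description: the values share each library's scaling and depth, and the guides may share reads. Next for miR-26a-5p came let-7a-1-3p and let-7c-2-3p (r = 0.81 each), which are passengers with an identical mature sequence and count as a single pattern. They were followed by miR-30e-5p (0.79), a guide of the muscle-rich miR-30 family, and miR-133b-3p (0.75), a muscle miRNA. With each group's mean subtracted, these 4 miRNAs had r of 0.66 to 0.70 with miR-26a-5p and took places 7 to 12. For miR-26b-5p the first places went to the same let-7 passengers (0.91 each), then miR-26a-5p, then miR-450a-5p and miR-201-5p (0.89 each), both encoded on the X chromosome. Without group means these had r of 0.86, 0.86, 0.86, 0.78 and 0.82. In SHR against WKY, let-7a-1-3p, miR-30e-5p, miR-133b-3p, miR-450a-5p and miR-201-5p had log2 fold changes of -0.29, -0.28, -0.33, -0.34 and -0.45. They were picked by a correlation that includes the group difference, so these values only describe them.

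**Figure D5:**
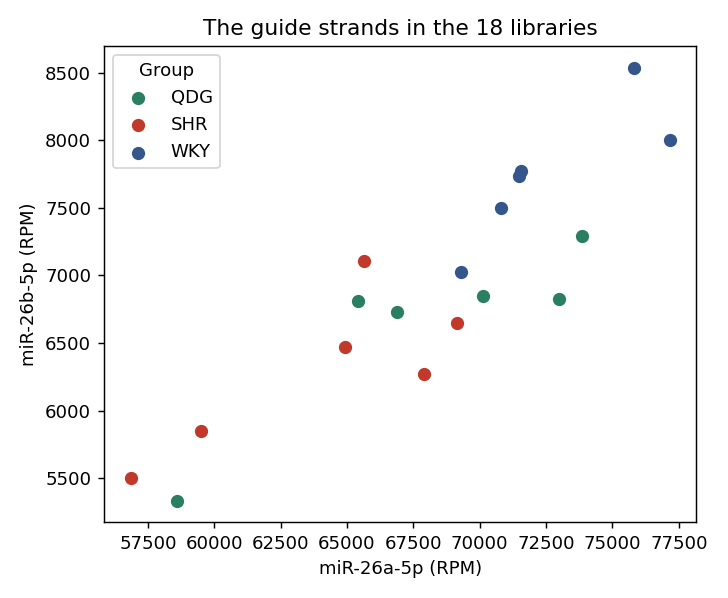
miR-26b-5p against miR-26a-5p (both RPM) in the 18 libraries, coloured by group. The guides rise and fall together (r = 0.90). The WKY libraries stand toward the upper right, with overlap. WKY replicate 1 (69290 and 7028 RPM) lies below and to the left of QDG replicate 6 (73850 and 7288 RPM).

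Other abundant guide families were also lower in SHR than in WKY by their medians. Of the 9 let-7 and miR-98 guides, which promote differentiation, 5 fell in SHR against WKY and 0 rose, with a median log2 fold change of -0.21, beside 15.1% lower, 8.05% higher and a median of -0.07 over all 410 miRNAs. let-7a-5p had 7887 ± 190 RPM in SHR and 10483 ± 356 RPM in WKY (SD, n = 6 each), a log2 fold change of -0.41 (limma adjusted p = 5.36e-05). Of the 5 miR-30 guides 4 fell and 0 rose, with a median of -0.20, but between 0 and 2 fell under the other scalings, where the median stayed below 0. For the let-7 and miR-98 guides 4 or 5 fell under each scaling. In QDG against WKY, limma called 4 of the 9 let-7 and miR-98 guides lower and 0 of the 5 miR-30 guides, beside 10.5% of all miRNAs. The medians were -0.17 and -0.14, and all members of both families had fold changes below 0. miR-30b-5p was called lower there with TMM or RLE scaling or scaling without the 10 most abundant miRNAs. In QDG against SHR none of either family was called by limma and the medians were 0.04 and 0.06, the first turning to -0.01 when scaled without the 10 most abundant miRNAs. The miR-26 guides had -0.30 and -0.19 in SHR against WKY, and whether they differ from these families was not tested.

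Of 12 other miRNAs reported to restrain the growth of heart muscle cells, 2 rose and 1 fell in SHR against WKY. Their median was -0.11. Over all 410 miRNAs 8.05% were higher and 15.1% lower, with a median of -0.07, and whether the list differs from these was not tested. Under each of the 5 other scalings 3 rose and 0 fell, the third being miR-185-5p. miR-1-3p, which represses growth factors of the heart, rose by 0.74 and miR-378a-3p, which lies in a gene of mitochondrial metabolism, by 0.45 (limma adjusted p = 3.34e-08 and 0.000326). The more abundant miR-1b, also listed, had 363996 RPM in SHR and 395414 RPM in WKY, a log2 fold change of -0.12 (limma adjusted p = 0.243). miR-30a-5p fell, with -0.20 (limma adjusted p = 0.03004). In QDG against WKY, miR-1-3p and miR-378a-3p rose, by 0.70 and 0.57 (limma adjusted p = 9.46e-08 and 3.11e-05), and 0 of 12 fell. Over all miRNAs in that comparison 7.32% were higher and 10.5% lower, and miR-1b had -0.14 (limma adjusted p = 0.144). In QDG against SHR 0 of 12 were called. The medians of the 12 were -0.07 in QDG against WKY and 0.01 in QDG against SHR. Of 7 other miRNAs reported to repress Ezh2, let-7a-5p alone was called, lower in SHR and in QDG than in WKY. Of all 410 miRNAs, 15.1% and 10.5% were lower in those comparisons. The medians of the Ezh2 list were -0.05 in SHR against WKY, 0.03 in QDG against SHR and -0.03 in QDG against WKY. These medians are near 0, and each changed sign under at least 1 other scaling.

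Markers of other cells were read beside these changes. In SHR against WKY, 2 of 6 heart muscle markers rose, miR-1-3p and miR-208b-3p, while miR-1b, miR-133a-3p, miR-208a-3p and miR-499-5p had -0.12, -0.01, -0.16 and -0.19 without passing the test. Over all miRNAs 8.05% were higher. Of 4 stromal markers 1 rose, miR-21-5p, at 23706 ± 6058 RPM in SHR and 17299 ± 980.3 RPM in WKY (SD, n = 6 each). The stromal markers summed to 30529 to 52244 RPM in SHR and 27462 to 32170 RPM in WKY. Of 5 leukocyte markers miR-155-5p rose, and the other 4 lay between -0.24 and 0.22 without passing the test. Of 4 epithelial markers miR-200c-3p rose, while miR-200a-3p, miR-200b-3p and miR-205 had -0.35, -0.32 and -0.40 without passing it. With the authors' values, none of the 2 endothelial, 2 smooth muscle, 3 red blood cell, 2 neuronal and 1 liver markers was called. This held for limma in all 3 comparisons. With upper quartile scaling the endothelial miR-126a-3p was called higher in QDG than in WKY. The leukocyte miR-223-3p was called higher in SHR than in WKY with RLE or upper quartile scaling. The epithelial miR-200c-3p was called higher in QDG than in WKY with TMM, RLE or upper quartile scaling. In QDG against WKY the same muscle and stromal markers rose, with miR-142-3p and miR-155-5p of the leukocyte markers, beside 7.32% of all miRNAs higher. The muscle markers miR-1b, miR-133a-3p, miR-208a-3p and miR-499-5p had -0.14, -0.07, -0.03 and -0.13 there without passing the test. Nor did the stromal miR-199a-3p, miR-199a-5p and miR-214-3p pass (0.01, 0.14 and 0.07), or the leukocyte miR-142-5p, miR-150-5p and miR-223-3p (0.01, -0.27 and 0.09). The part of these cell markers in the miR-26 values was not tested.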

How the data were processed

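Small RNA libraries were made with the NEBNext Multiplex Small RNA kit from 1 µg of total RNA taken up in Trizol, per the labels' protocols. FastQC, TopHat2 and limma are the tools listed, with no version or role, per the submitters' processing notes. The genome build, the miRNA annotation and the treatment of reads that fit several miRNAs were not stated in any label or header read here. The deposited values are normalized read counts per the file headers, used as a signal per mature miRNA. In each library they were whole multiples of 1 step, and dividing by it gave a whole number, to within 0.01, for 10782 of 10782 values. The authors' divisor, 4449279 to 7403775 reads, was smaller than the reads over listed miRNAs, so values sum to more than 1000000. No pair of libraries was identical.

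The filter asked for 1 RPM or more in 6 or more libraries and left 410 of 599 miRNAs, without miR-26a-3p. Values of all 18 libraries as log2(RPM + 1) entered limma 3.58.1 (R 4.3.3) with trend and robust moderation. Benjamini-Hochberg adjustment ran over the 410, with a threshold of 0.05. This fit was also tried on simulated data. The changes planted there were larger than those of the miR-26 arms, so it does not show how well changes of their size are found. Ratios were compared by two-sided exact permutation tests. edgeR 4.0.16, DESeq2 1.42.0 and limma-voom on the recovered reads, other scalings, pseudocounts, filters and left-out libraries were alternatives. The named miRNAs were the members, the 5 most correlated with each guide, abundance neighbours and called members of the comparison lists. The members, lists and tests were chosen with earlier results of these data known.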

Additional observations from a re-analysis of the deposited data

Results flagged for a closer look

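QDG replicate 4 lay far below the other QDG libraries for miR-26b-5p, at 5334 RPM, with the next lowest at 6730 RPM and the highest at 7288 RPM. QDG replicate 1 lay far above the other QDG libraries for miR-26a-3p, at 0.848 RPM, which is 5 reads, with the next highest at 0.212 RPM, which is 1 read. In all, 21 groups of 6 values were examined in this way, and chance sets a sample apart in about 1 in 20. That rate need not hold for counts as low as those of miR-26a-3p.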

How the results depend on the processing

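The fall of miR-26b-5p in SHR against WKY kept its call under 13 of the 14 alternatives other than leaving out single libraries, and lost it with upper quartile scaling (log2 -0.20, limma adjusted p = 0.0799). It kept it in all 18 fits without a single library, from -0.34 to -0.26. miR-26a-5p in that comparison was past the threshold in none of the 14 (adjusted p 0.0501 to 0.456) and in 4 of the 18 (-0.21 to -0.15). miR-26b-5p in QDG against WKY passed with the scaling that leaves out the 10 most abundant miRNAs (-0.23, adjusted p = 0.0317) and with WKY replicate 1 and SHR replicate 5 both left out (-0.26, adjusted p = 0.0218), and in 3 of the 18 (-0.26 to -0.17). The difference of the guides' log2 ratio ran from -0.15 to -0.11 in QDG against WKY and from -0.14 to -0.10 in SHR against WKY with a library left out. The causes were not tested. Counts of calls stayed within 1.5 times under each alternative run, at 81 to 106 in SHR against WKY, 0 in QDG against SHR and 64 to 87 in QDG against WKY, but in the last upper quartile scaling gave 55 higher and 28 lower, against 30 and 43. Scaling to all reads over listed miRNAs was chosen after seeing the data. miR-26a-3p could be fitted without the filter alone (log2 0.09, -0.15 and -0.06, in the order SHR against WKY, QDG against SHR, QDG against WKY), and its ratio to its guide was not run. Whether replicate numbers pair the libraries was not tested. Deviations correlated over 0.1 in 2, 1 and 4 of 6 same-numbered pairs, in the same order of comparisons, and ran from 0.004 to 0.20 in QDG against WKY. By the same order 2, 0 and 3 of 12 libraries were most alike to their own number. With the replicate block limma called 93, 0 and 77 miRNAs and changed no miR-26 call. The paired exact test of the guides' ratio in QDG against WKY (-0.13, adjusted p = 0.188) did not pass over 6 tests. Before adjustment the smallest p that 6 pairs allow is 0.03125, so a test could pass only if other ratio tests had small p too. The ratio was lower in QDG in 6 of 6 such pairs. Depth limits miR-26a-3p and miR-26b-3p.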
